A study of Homo sapiens with 15 samples.

Results

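The genes described here encode the E2F-RB switch and the SCF ubiquitin ligase, and they were followed in HCT116 cells, an established human colorectal cancer line, after treatment with thymoquinone (TQ), 5-fluorouracil (5-FU), both drugs together (Combi) or a hybrid molecule of both (SARB). They were chosen by symbol from the table of raw counts. Of 10 listed symbols, 9 were found among the 730 endogenous genes of the panel, namely E2F1, E2F5, TFDP1, RB1, SKP1, CUL1, RBX1, SKP2 and FBXW7, and BTRC was not analysed here. The 5 groups held 3 samples each, 15 in all, collected after 24 h with 40 µM TQ, 15 µM 5-FU, 35 µM TQ plus 35 µM 5-FU (Combi), 35 µM SARB or no treatment (control). All groups share the cell line and the single time point. The compounds were dissolved in DMSO, whereas the labels call the control cells untreated. SARB joins a TQ part and a 5-FU part through an ester, so only SARB and Combi carry both parts at matched concentrations. The labels call the samples biological replicates, but no source says how the cultures were separated, and p-values measure the spread between these samples.

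E2F transcription factors bind DNA as dimers with a DP protein and turn on genes for DNA replication, while RB1, when not phosphorylated by cyclin-dependent kinases, holds the activating E2Fs silent. The SCF ligase tags proteins with ubiquitin for degradation. CUL1 is its scaffold, RBX1 recruits the ubiquitin-loaded enzyme, SKP1 is the adaptor, and an exchangeable F-box protein such as SKP2 or FBXW7 picks the substrate. SKP2 is known for removing CDK inhibitors and FBXW7 for removing cyclin E, MYC, JUN and NOTCH proteins, and FBXW7 is a tumor suppressor often mutated in colorectal cancer.

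E2F1 and SKP2 are themselves known E2F target genes, so the promoters of the genes were searched for 4 forms of the E2F motif, TTTCCCGC, TTTCGCGC, TTTGCCGC and TTTGGCGC, on both strands. RefSeq windows of 300 bases (GRCh38.p14, 250 before to 50 after a start site) were found for 8 of the 9 genes, 15 windows in all, and E2F5 had none. At least 1 match occurred in 1164 of 35116 windows of all genes (3.31%) and in 2 of these 15 windows. They belong to E2F1 and TFDP1, 2 of the 8 genes, and some genes had several windows. The only window of RB1 lay near the 3′ end of the gene and does not describe its main promoter. These stretches are shown because they hold every match found in the 15 windows, with the matches in capitals.
E2F1, chr20:33686386-33686485, minus strand: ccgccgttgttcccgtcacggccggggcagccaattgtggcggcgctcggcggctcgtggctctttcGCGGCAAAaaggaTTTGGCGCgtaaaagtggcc
TFDP1, chr13:113584583-113584682, plus strand: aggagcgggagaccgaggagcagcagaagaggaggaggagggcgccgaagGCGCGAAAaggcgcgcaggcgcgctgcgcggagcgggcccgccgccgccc
In E2F1 the first match reads TTTGCCGC on the opposite strand, at positions -33 to -26 from the start site, and the second is TTTGGCGC at -20 to -13. In TFDP1 the match reads TTTCGCGC on the opposite strand at -120 to -113 from the start site of its window. That start site lies downstream of the first base of the TFDP1 gene given below. A match describes letters in the window and says nothing of binding in these cells.

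In the NanoString assay, pairs of probes capture each transcript and a color barcode is counted without amplification. Endogenous counts summed to between 135017 and 607782 per sample, and the raw counts of the 9 genes lay between 66 and 10261. All 135 of 135 values were above the background limit of their sample (mean of the negative probes plus 2 SD, 6.23 to 26.4 counts). Values below are scaled counts, that is raw counts divided by a factor per sample (0.46 to 2.29) that makes the geometric mean of the 40 housekeeping genes equal. Probes differ in efficiency, so levels were compared between groups within a gene and not between genes, and since each assay took 50 ng of RNA, a change in RNA per cell and a change in the makeup of the culture cannot be told apart. All groups entered 1 quasi-likelihood fit in edgeR, p-values were adjusted over the 730 genes by the method of Benjamini and Hochberg, and a gene was called where the adjusted p was 0.05 or less and the fold 1.5 or more (0.585 on the log2 scale). On this scale the median of all genes lay below 0 in each treatment, at -0.47 (TQ), -0.27 (5-FU), -0.10 (Combi) and -0.41 (SARB) in log2 units. TMM normalization, a scaling on the bulk of all genes, put it between -0.07 and -0.02. Of 3 cartridges, the first carried control replicate 1 with all TQ, 5-FU and SARB samples, the second carried the other two controls with Combi replicate 1, and the last carried the remaining Combi samples. A fit with cartridge as a block therefore sets TQ, 5-FU and SARB against control replicate 1 alone and rests on Combi replicate 1 for Combi. Of 7 epithelial markers on the panel, 6 were above background in every sample, whereas 4 of 5 fibroblast or vessel markers were above it in none. Of 6 blood cell markers, CD40 was above background in every sample, CSF1R in none and the others in some.

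**Figure D1:**
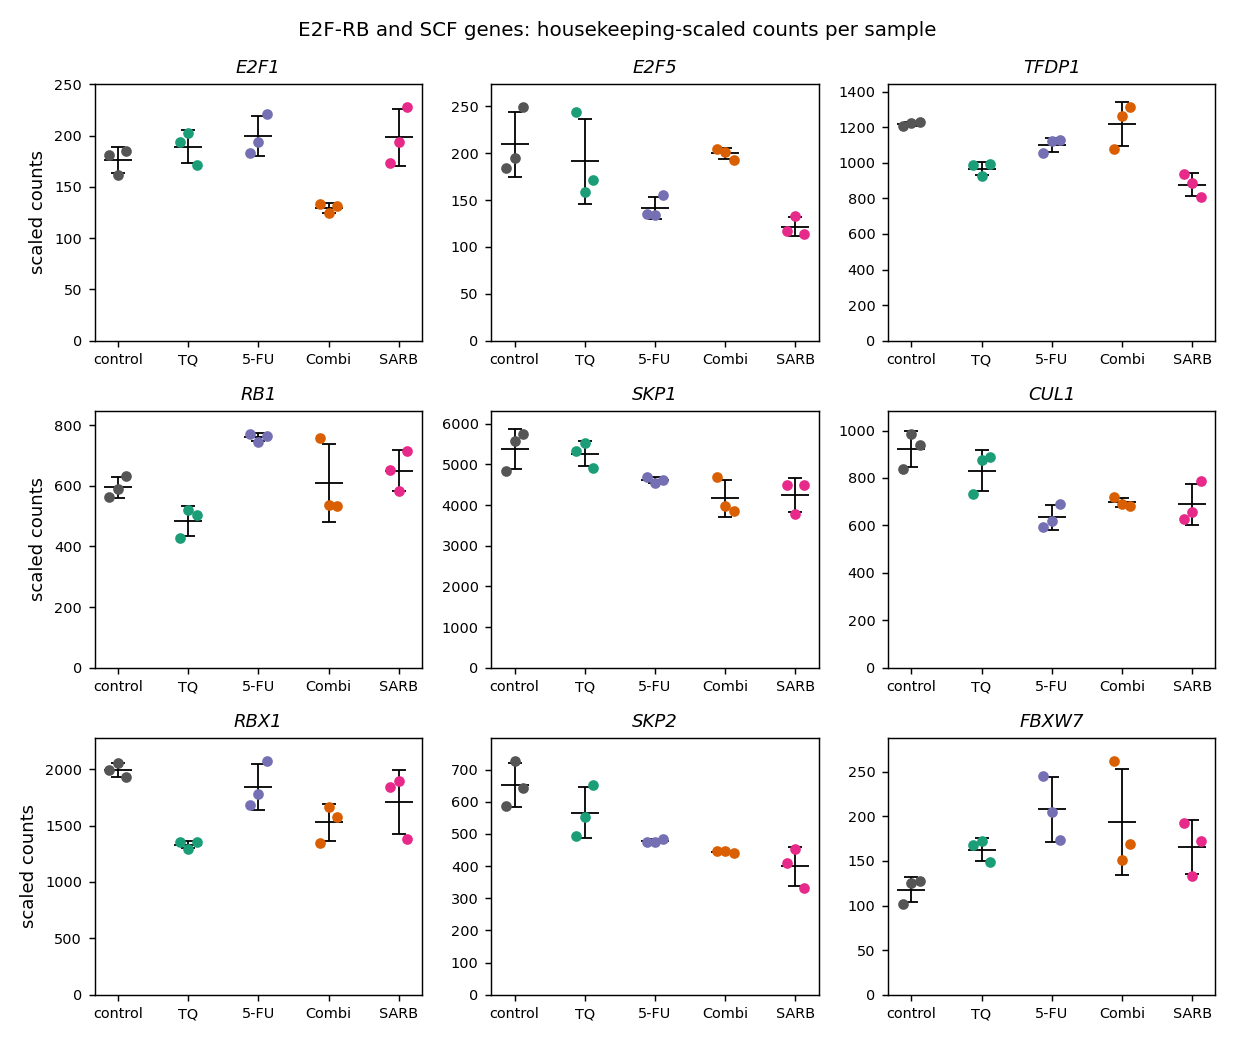
Housekeeping-scaled counts of the 9 genes in each sample, by group, with points for samples, a long bar for the group mean and whiskers for 1 SD (n = 3). FBXW7 was above the control samples in every treated sample, and E2F1 was below them in every Combi sample.

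FBXW7, the F-box protein that recognizes cyclin E and NOTCH (chr4:152320544-152536092, GRCh38.p14), was the member called higher against control. It had 101, 125 and 127 scaled counts in the control samples. The TQ samples had 168, 172 and 149, and the 5-FU samples 245, 205 and 173. Every one of them lay above the highest control sample. In Combi the values were 262, 151 and 169, and in SARB they were 192, 133 and 172. The lowest treated value, SARB replicate 2, was still above the control samples, while Combi replicate 1 stood far above the other two Combi samples, which ran on another cartridge. Group means were 118 ± 14.2 in control, 163 ± 12.5 in TQ and 208 ± 36.3 in 5-FU, followed by 194 ± 59.4 in Combi and 166 ± 30.0 in SARB (SD, n = 3). On the log2 scale FBXW7 rose by 0.82 in 5-FU (standard error, SE, 0.20, edgeR adjusted p = 0.00391) and by 0.69 in Combi (SE 0.20, edgeR adjusted p = 0.0115). In TQ the log2 fold change was 0.47 (SE 0.21, edgeR adjusted p = 0.0811) and in SARB 0.50 (SE 0.20, edgeR adjusted p = 0.054), and neither was called. After TMM normalization FBXW7 was called higher under all 4 treatments, with log2 fold changes of 0.95 (TQ), 1.03 (5-FU), 0.78 (Combi) and 0.87 (SARB). The call in Combi was lost without Combi replicate 1 (0.44) or without control replicate 1 (0.60), and SARB gained one without SARB replicate 2 (0.62). With cartridge as a block the values were 1.04 in 5-FU and 1.05 in Combi, both called, and 0.69 in TQ and 0.72 in SARB.

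SKP2, the F-box protein that recognizes CDK inhibitors (chr5:36152111-36193530, GRCh38.p14), was lowest in SARB. It had 587, 726 and 644 scaled counts in control and 494, 552 and 653 in TQ. Values were 475, 474 and 485 in 5-FU, 447, 447 and 441 in Combi, and 410.5, 454 and 333 in SARB. TQ overlapped with control, whereas all samples of 5-FU, Combi and SARB were below every control sample. SKP2 fell in SARB, with group means of 652 ± 69.6 in control and 399 ± 61.4 in SARB (SD, n = 3) and a log2 fold change of -0.72 (SE 0.13, edgeR adjusted p = 0.00018). In Combi it was -0.55 (SE 0.13, edgeR adjusted p = 0.00219) and in 5-FU -0.45 (SE 0.13, edgeR adjusted p = 0.0124), both under the 1.5-fold minimum, and in TQ -0.20 (SE 0.13, edgeR adjusted p = 0.225). The call in SARB was lost after TMM normalization (-0.38), in DESeq2 (-0.38) and with cartridge as a block (-0.57). After housekeeping scaling 34.4% of all genes had a lower log2 fold change in SARB than SKP2. The 5-FU value after TMM normalization was -0.25 (edgeR adjusted p = 0.21). Combi passed both thresholds with that block (-0.61) and without control replicate 1 (-0.62). Limma on the deposited normalized values also called SKP2 lower in Combi (-0.64). Combi and SARB overlapped in the order of group means, as did control and TQ, while 5-FU, at 478 ± 6.21, lay apart from its neighbors.

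The E2F members did not move as 1 group. E2F1, an activating E2F (chr20:33675477-33686385, GRCh38.p14), had 181, 161 and 185 scaled counts in control. It had 194, 203 and 171 in TQ, 183, 194 and 221 in 5-FU, and 173, 194 and 228 in SARB. Combi samples had 133, 124 and 131. Combi alone stood apart, below every other sample, and the other groups overlapped with each other in the order of their means. The mean was 176 ± 12.9 in control and 129.6 ± 4.86 in Combi (SD, n = 3), a log2 fold change of -0.44 (SE 0.14, edgeR adjusted p = 0.0202) that was under the 1.5-fold minimum. In Combi E2F1 no longer passed the adjusted p after TMM normalization (-0.35, edgeR adjusted p = 0.17), in DESeq2 (-0.41, adjusted p = 0.14) or with cartridge as a block (-0.38, edgeR adjusted p = 0.30). E2F1 in Combi still passed it in limma on the deposited normalized values (-0.52, limma adjusted p = 0.0107). It also did so with only the 34 housekeeping genes of at least 100 counts as the scale (-0.41, edgeR adjusted p = 0.0323). The log2 fold changes of E2F1 were 0.11 in TQ, 0.18 in 5-FU and 0.18 in SARB, and none passed the adjusted p. After TMM normalization E2F1 was at 0.58 in TQ and 0.55 in SARB, just short of a call, and DESeq2 called it higher in TQ (0.62).

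E2F5, which works mainly as a repressor together with pocket proteins related to RB1, had 184, 195 and 249 scaled counts in control and 244, 159 and 171 in TQ. In 5-FU it had 136, 134 and 156, in Combi 205, 202 and 193, and in SARB 117, 133 and 114. The samples of 5-FU and SARB were below all control, TQ and Combi samples, and Combi and TQ overlapped with control. E2F5 fell in SARB from a mean of 209.6 ± 34.9 to 121 ± 10.2 (SD, n = 3), a log2 fold change of -0.80 (SE 0.16, edgeR adjusted p = 0.000563). In 5-FU the log2 fold change was -0.57 (SE 0.16, edgeR adjusted p = 0.0119), just under the fold minimum, and it passed that minimum without 5-FU replicate 3 (-0.64), without control replicate 1 (-0.65) or without control replicate 2 (-0.62). It lost the adjusted p after TMM normalization (-0.37, edgeR adjusted p = 0.0908), in DESeq2 (-0.36, adjusted p = 0.146) and with cartridge as a block (-0.38, edgeR adjusted p = 0.349). Limma on the deposited normalized values (-0.62) and the scale of the 34 housekeeping genes of at least 100 counts (-0.61) called E2F5 lower in 5-FU. Values in Combi and TQ were -0.07 and -0.17. The call in SARB was lost after TMM normalization (-0.43), in DESeq2 (-0.42) and with cartridge as a block (-0.62, edgeR adjusted p = 0.0675). After housekeeping scaling 31.2% of all genes had a lower log2 fold change in SARB than E2F5.

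Within a sample, the ratio of both E2F counts needs no scaling factor. It was formed after the values had been seen and was not tested. Its log2 value averaged -0.24 ± 0.20 in control, 0.01 ± 0.34 in TQ and 0.49 ± 0.05 in 5-FU, and it was -0.63 ± 0.07 in Combi and 0.70 ± 0.26 in SARB (SD, n = 3). The lowest SARB sample was at 0.55 and the highest Combi sample at -0.56, so these treatments lay on opposite sides of all control samples (-0.43 to -0.02). SARB and Combi shared no cartridge. Control replicate 1, on the cartridge of SARB, was at -0.02, and control replicates 2 and 3, on the second cartridge, were at -0.27 and -0.43. Any share of cartridge in this contrast was not tested. The same ratio for FBXW7 over SKP2 averaged -2.47 ± 0.11 in control, -1.79 ± 0.30 in TQ and -1.22 ± 0.27 in 5-FU, with -1.24 ± 0.42 in Combi and -1.27 ± 0.44 in SARB (SD, n = 3). All treated samples, from -2.14 to -0.77, were above the highest control sample at -2.34.

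**Figure D2:**
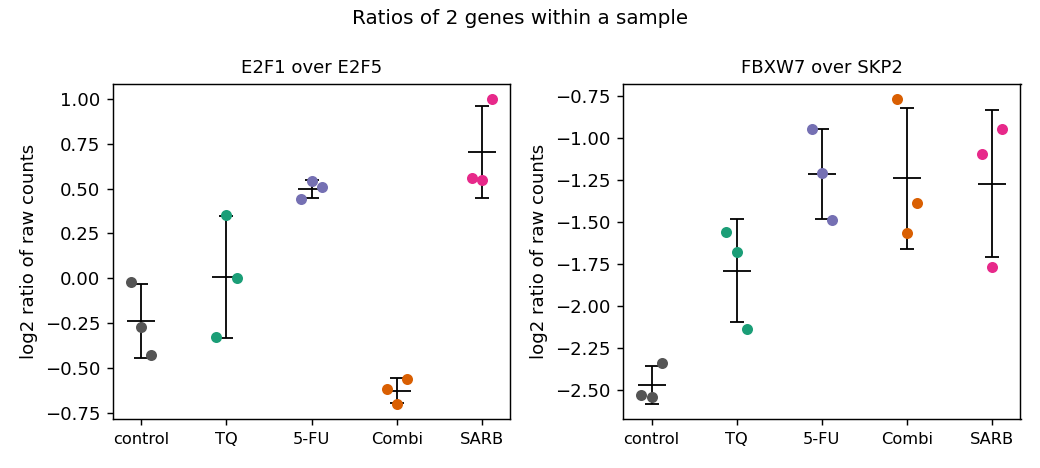
Log2 ratio of raw counts within each sample for E2F1 over E2F5 and for FBXW7 over SKP2, with points for samples, a long bar for the group mean and whiskers for 1 SD (n = 3). E2F1 over E2F5 was highest in SARB (mean 0.70) and lowest in Combi (mean -0.63), and FBXW7 over SKP2 was above control in every treated sample.

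TFDP1, the DP partner of the E2Fs (chr13:113584688-113641473, GRCh38.p14), had 1209.8, 1224 and 1232 scaled counts in control, the narrowest spread of any member in that group. Values were 988, 924 and 993 in TQ, 1055, 1123 and 1127 in 5-FU, 1078.5, 1264 and 1315 in Combi, and 936, 887 and 807 in SARB. TQ, 5-FU and SARB samples were all below control, and Combi overlapped with it. Log2 fold changes were -0.48 in SARB (SE 0.10, edgeR adjusted p = 0.00109), -0.34 in TQ (SE 0.11, edgeR adjusted p = 0.0193), -0.15 in 5-FU and -0.00 in Combi. None reached 1.5-fold, though limma on the deposited normalized values put SARB at -0.59, past the minimum, and after TMM normalization the values were -0.14 in SARB and 0.11 in TQ.

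RB1, the pocket protein that restrains E2Fs (chr13:48303751-48481890, GRCh38.p14), was called in no comparison. It had 564, 589.9 and 632 scaled counts in control, 429, 519.5 and 503 in TQ, and 771, 746 and 765 in 5-FU. It had 757, 537 and 534 in Combi and 654, 582 and 716 in SARB. All 5-FU samples were above and all TQ samples below the control samples, while Combi and SARB overlapped with control, and Combi replicate 1, on another cartridge than the other two, lay in the range of 5-FU. The log2 fold changes were 0.35 in 5-FU (SE 0.13, edgeR adjusted p = 0.056), -0.29 in TQ (SE 0.14, edgeR adjusted p = 0.0971), 0.13 in SARB and 0.03 in Combi. TMM normalization gave 0.55 in 5-FU (edgeR adjusted p = 0.02), 0.50 in SARB (edgeR adjusted p = 0.0275) and 0.18 in TQ, so the sign in TQ depended on the scaling. In 5-FU and SARB RB1 thus passed the adjusted p as higher, under the fold minimum. DESeq2 gave 0.56 in 5-FU (adjusted p = 0.0233) and 0.51 in SARB (adjusted p = 0.0394).

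With all samples and all 40 housekeeping genes as the scale in edgeR, the core subunits of the ligase were called in no comparison, although each passed the adjusted p in at least 1. CUL1, the scaffold (chr7:148697756-148801110, GRCh38.p14), had 838, 985 and 939.6 scaled counts in control, 731, 874 and 888 in TQ, and 593, 617 and 691 in 5-FU. It had 719.98, 689.9 and 683 in Combi and 626, 656 and 787 in SARB. 5-FU, Combi and SARB samples were below all control samples. The log2 fold change was -0.54 in 5-FU (SE 0.12, edgeR adjusted p = 0.00143), -0.40 in Combi, -0.41 in SARB and -0.14 in TQ. The 5-FU value passed 1.5-fold without control replicate 1 (-0.60) or without 5-FU replicate 3 (-0.61). Limma on the deposited normalized values (-0.61) and the scale of the 34 housekeeping genes of at least 100 counts (-0.59) also called CUL1 lower in 5-FU. After TMM normalization CUL1 passed the adjusted p in no treatment, at -0.35 in 5-FU (edgeR adjusted p = 0.13), -0.31 in Combi (edgeR adjusted p = 0.176) and -0.05 in SARB (edgeR adjusted p = 0.844).

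RBX1, the RING subunit that recruits the ubiquitin-loaded enzyme (chr22:40951378-40973309, GRCh38.p14), had 1994, 2054.5 and 1929 scaled counts in control and 1351, 1292 and 1351 in TQ. It had 1678, 1779.7 and 2069 in 5-FU, 1347, 1665 and 1577 in Combi, and 1842, 1896 and 1383 in SARB. TQ, Combi and SARB samples were below all control samples, and 5-FU overlapped with control. In TQ the log2 fold change was -0.58 (SE 0.12, edgeR adjusted p = 0.00175), just short of the 0.585 needed for a call, and it passed without control replicate 3 (-0.61), TQ replicate 1 (-0.59) or TQ replicate 3 (-0.59). Limma on the deposited normalized values (-0.68) and the scale of the 34 housekeeping genes of at least 100 counts (-0.64) called RBX1 lower in TQ. After TMM normalization its log2 fold change in TQ was -0.13 (edgeR adjusted p = 0.498), close to the median of all genes. The other log2 fold changes were -0.38 in Combi, -0.23 in SARB and -0.11 in 5-FU.

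SKP1, the adaptor between CUL1 and the F-box protein (chr5:134148935-134176950, GRCh38.p14), had 4827, 5572 and 5744 scaled counts in control, 5335.5, 5519 and 4919 in TQ, and 4692, 4541 and 4616.5 in 5-FU. It had 4689.5, 3979 and 3844 in Combi and 4486, 3770.1 and 4488 in SARB. TQ lay within the range of the control samples, and the other treatments lay below it. Log2 fold changes were -0.37 in Combi (SE 0.11, edgeR adjusted p = 0.0128), -0.34 in SARB (SE 0.11, edgeR adjusted p = 0.0176), -0.22 in 5-FU and -0.03 in TQ. After TMM normalization SKP1 was at -0.28 in Combi and 0.02 in SARB, and in TQ it was at 0.43 (edgeR adjusted p = 0.0447).

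Across the 9 genes the counts of calls were small. In TQ no member was called, against 3.42% of all 730 genes called higher and 21.6% called lower, and 2 members (TFDP1 and RBX1) passed the adjusted p alone, against 34.5% of all genes. In 5-FU 1 member was called higher and none lower, against 10.1% of all genes higher and 10.1% lower, and 4 passed the adjusted p alone, against 27.8%. In Combi 1 was called higher and none lower, against 13.6% and 6.58% of all genes, and 6 passed the adjusted p alone, against 28.6%. The counts in SARB were none higher and 2 lower, against 8.63% and 20% of all genes, and 5 passed the adjusted p alone, against 39.3%. The share of members passing the adjusted p alone was above that of all genes in 5-FU, Combi and SARB and below it in TQ, and with 9 genes these shares are descriptions. Every member count was at least 66, whereas 514 of the 730 genes had a mean raw count of at least 20. A fit of those 514 genes called 132 (TQ), 148 (5-FU), 149 (Combi) and 176 (SARB) over both directions. Their share at the adjusted p alone was not computed. After TMM normalization 5 members passed the adjusted p alone in SARB, against 33.3% of all genes, 3 in TQ, against 21.5%, 2 in Combi, against 26.4%, and 2 in 5-FU, against 25.8%, so that the share of members in 5-FU and Combi was then below that of all genes. These were partly other members. In SARB they were E2F1, RB1 and FBXW7, all higher, with E2F5 and SKP2 lower, and in TQ E2F1, SKP1 and FBXW7, all higher. After housekeeping scaling the members passing in SARB (E2F5, TFDP1, SKP1, SKP2 and CUL1) and in TQ were all lower. Where edgeR called none, members at an unadjusted p under 0.05 numbered 1 higher and 3 lower in TQ, 3 lower in 5-FU, 5 lower in Combi and 1 higher in SARB. For these 5 counts in the same order DESeq2 called 2, 0, 0, 0 and 1 members, and limma on the deposited normalized values called 0, 1, 2, 1 and 0. Over both directions DESeq2 called 122 (TQ), 136 (5-FU), 149 (Combi) and 176 (SARB) of all 730 genes. Limma called 131, 180, 176 and 214 in the same order. The share of all genes at an unadjusted p was not computed, so the counts at that threshold are descriptions.

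The 9 genes had a median log2 fold change of -0.17 (TQ), -0.15 (5-FU), -0.37 (Combi) and -0.34 (SARB), which was below the median of all genes in Combi (-0.10) and above it in the other treatments. After TMM normalization the medians of the 9 genes were 0.30, 0.04, -0.28 and 0.02 in the same order. The 4 comparisons share the control samples.

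**Figure D3:**
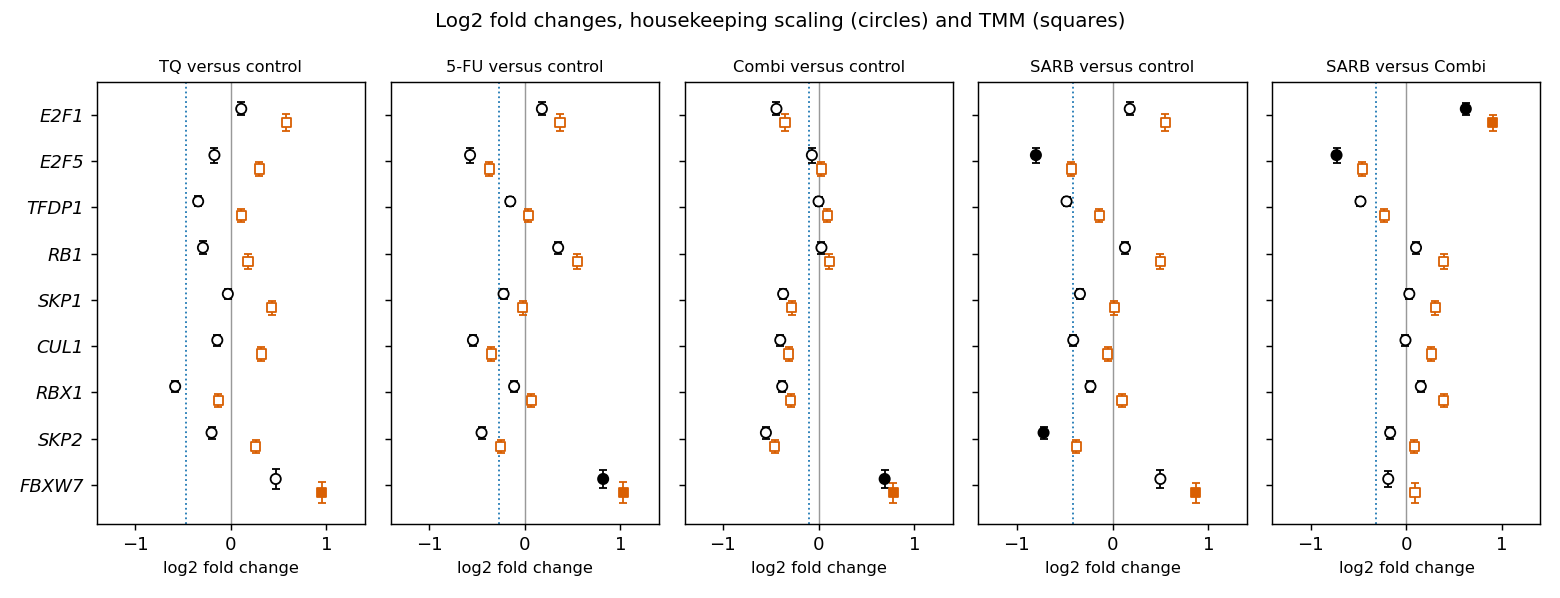
Log2 fold changes of the 9 genes in 5 comparisons after housekeeping scaling (circles) and after TMM normalization (squares), with whiskers for 1 standard error. Filled symbols mark calls, the gray line marks 0 and the dotted line the median of all genes after housekeeping scaling, which was -0.47 in TQ and -0.10 in Combi.

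SARB and Combi deliver the TQ and 5-FU parts at the same concentration, linked in SARB and as separate molecules in Combi. Between them 1 member was called higher in SARB and 1 lower, at 0.959% and 11.2% of all 730 genes, and 3 passed the adjusted p alone, at 18.2%. E2F1 was higher in SARB, at 198 ± 27.6 against 129.6 ± 4.86 scaled counts (SD, n = 3), with a log2 difference of 0.62 (95% interval 0.35 to 0.90, edgeR adjusted p = 0.00294), and 98.6% of all genes had a lower value in this comparison. E2F5 was lower in SARB, at 121 ± 10.2 against 200.03 ± 6.09, with a log2 difference of -0.73 (-1.05 to -0.41, edgeR adjusted p = 0.00291), and 22.2% of all genes had a lower value. For both genes no SARB sample overlapped with a Combi sample. E2F1 was called after TMM normalization too (0.90), whereas E2F5 was not called there (-0.46) or in DESeq2 (-0.39). The E2F1 call was lost without SARB replicate 3 (0.50) and with only the 34 housekeeping genes of at least 100 counts as the scale (0.57). No cartridge held both SARB and Combi, and with cartridge as a block the log2 differences were 0.52 for E2F1 and -0.50 for E2F5 (edgeR adjusted p = 0.997 for each). That fit joins SARB to Combi only through the controls on the first and second cartridges. The 9 genes had a median log2 difference of -0.01, against -0.32 for all genes.

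TFDP1 was also lower in SARB than in Combi by a log2 difference of -0.48 (95% interval -0.69 to -0.26, edgeR adjusted p = 0.00299), under the fold minimum, and after TMM normalization the difference was -0.23 (edgeR adjusted p = 0.294). For the other six members, no difference between SARB and Combi passed the adjusted p after housekeeping scaling. The log2 difference was 0.10 for RB1 (-0.17 to 0.38), 0.03 for SKP1 (-0.20 to 0.25) and -0.01 for CUL1 (-0.26 to 0.23). Differences were 0.15 for RBX1 (-0.10 to 0.41), -0.17 for SKP2 (-0.43 to 0.10) and -0.19 for FBXW7 (-0.58 to 0.19). These intervals hold for that scaling only. TMM normalization and DESeq2 put RB1 at 0.39 and 0.46, SKP1 at 0.30 and 0.38, CUL1 at 0.26 and 0.34, and RBX1 at 0.39 and 0.46. Of these values, that of RBX1 in TMM alone lay inside the interval above, and RBX1 passed the adjusted p in DESeq2 (0.015). The values do not show that these genes respond alike to SARB and Combi. TQ at 40 µM and 5-FU at 15 µM were given at other concentrations than SARB and Combi, so their values above stand side by side without a test between treatments.

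As a description, the panel gene with the most similar pattern was found for 8 members as the smallest root mean square distance between the 4 log2 fold changes against control, among 505 genes with a mean raw count of at least 20. The pattern of SKP2 was closest to PTPN11 (distance 0.04) and that of SKP1 to PRKAR1B (0.05). RBX1 was closest to PRKAA2 (0.06), TFDP1 to MAPT (0.07), CUL1 to RAD50 (0.07), RB1 to CDKN2B (0.10) and E2F5 to FZD7 (0.11). E2F1 was closest to PPP2R1A (0.13).

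The genes that act around this switch were described from 4 lists written from general knowledge, with CDKN1A, CDKN1C and CCNE1 among those on more than 1 list. The lists were chosen with earlier results of these data known, so their shares set against all genes are descriptions. In each comparison up to 2 called genes with the largest change were named per list. A gene named in 1 treatment can therefore have changed in others too. For the 4 lists, shares of all genes by direction are given after housekeeping scaling only. They cover all 730 genes, of which 514 had a mean raw count of at least 20. After TMM normalization 123 (TQ), 145 (5-FU), 161 (Combi), 188 (SARB) and 93 (SARB against Combi) of all genes were called over both directions. List counts by direction after TMM normalization or at an unadjusted p therefore have no matching share and are descriptions. Among 31 known E2F target genes of S phase and DNA repair on the panel, 3 were called higher and 11 lower in 5-FU, 3 and 9 in Combi, 1 and 9 in SARB, and 1 and 3 in TQ. The share called higher was 9.68% in 5-FU against 10.1% of all genes, 9.68% in Combi against 13.6%, 3.23% in SARB against 8.63% and 3.23% in TQ against 3.42%. The share called lower was above that of all genes in 5-FU (35.5% against 10.1%), Combi (29.0% against 6.58%) and SARB (29.0% against 20%) and below it in TQ (9.68% against 21.6%). The list median was -0.47 in 5-FU against -0.27 for all genes, -0.31 in Combi against -0.10, -0.41 in SARB against -0.41, and -0.29 in TQ against -0.47. After TMM normalization 6 were called lower in 5-FU, 7 in Combi and 3 in SARB, where 6 were then called higher, and in TQ 3 were higher and 0 lower. The replication helicase subunits MCM7 and MCM5 fell by 1.03 in Combi and by 1.12 in SARB, respectively, on the log2 scale. TTK, a mitotic checkpoint kinase, fell by 0.87 in 5-FU and by 0.97 in SARB, and the mismatch repair gene MSH6 fell by 0.87 in 5-FU. In TQ, CCNE1 (cyclin E1) rose by 0.79, and MYB, a transcription factor, was called lower at -0.76. The MYB call was lost after TMM normalization (-0.27), with cartridge as a block (-0.35), and without control replicate 2 (-0.69) or 3 (-0.64) or TQ replicate 2 (-0.77) or 3 (-0.69). In SARB against Combi only DNMT1, the maintenance DNA methyltransferase, was called in this list, at a log2 difference of 0.70, and with cartridge as a block it was 0.15 and not called. At an unadjusted p under 0.05, 4 genes of the list were higher and 7 lower in that pair, and TMM normalization called 4 higher.

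Of 17 kinases, cyclins and inhibitors that act on RB1, 5 were called higher and 1 lower in 5-FU, 3 and 3 in Combi, 3 and 2 in SARB and 2 and 3 in TQ. For higher calls this was 29.4% in 5-FU against 10.1% of all genes, 17.6% in Combi against 13.6%, 17.6% in SARB against 8.63% and 11.8% in TQ against 3.42%. For lower calls it was 5.88% against 10.1%, 17.6% against 6.58%, 11.8% against 20% and 17.6% against 21.6% in the same order. Medians were 0.16 in 5-FU against -0.27 for all genes, -0.07 in Combi against -0.10, -0.40 in SARB against -0.41 and -0.22 in TQ against -0.47. TMM normalization left 5 higher and 0 lower in TQ, a description without a matching share of all genes. CDKN1A, a CDK inhibitor and SKP2 substrate, rose in 5-FU (2.18), Combi (2.68) and SARB (2.39), and cyclin A2 (CCNA2) fell in 5-FU (-0.86), Combi (-0.95) and SARB (-0.96). CCND3, a D-type cyclin, rose in Combi by 1.39, but with cartridge as a block the value was 0.73 and not called. In TQ the CDK inhibitors CDKN1C and CDKN1A were called lower, at -0.97 and -0.95, and were not called after TMM normalization (-0.48 and -0.47) or with that block (-0.67 and -0.56). In SARB against Combi 2 were called lower, CDKN1C (-1.02) and CCND3 (-0.59), and 0 higher, with 3 higher at an unadjusted p under 0.05 and 4 called higher after TMM normalization. With cartridge as a block CDKN1C was at -0.12 and CCND3 at 0.23, neither called. CCND3 also lost its call after TMM normalization (-0.32) and without Combi replicate 2 (-0.35) or 3 (-0.58) or SARB replicate 1 (-0.48) or 3 (-0.67), and its adjusted p of 0.0378 in edgeR was the largest among the genes named from the lists.

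Among 19 genes whose proteins are known substrates of SKP2, FBXW7 or BTRC complexes, 6 were called higher and 0 lower in 5-FU, where 4 were lower at an unadjusted p under 0.05 and TMM normalization called 0 lower. In Combi 7 were higher and 1 lower, in SARB 5 and 1, and in TQ 2 and 5. The share higher was 31.6% in 5-FU against 10.1% of all genes, 36.8% in Combi against 13.6%, 26.3% in SARB against 8.63% and 10.5% in TQ against 3.42%. The share lower was 5.26% in Combi against 6.58%, 5.26% in SARB against 20% and 26.3% in TQ against 21.6%. The medians of the list were -0.08 in 5-FU against -0.27 for all genes, 0.17 in Combi against -0.10, -0.18 in SARB against -0.41 and 0.10 in TQ against -0.47. These are transcripts, and protein levels were not measured in this assay. After TMM normalization 8 were called higher and 1 lower in TQ, where 123 of all genes were called over both directions. The share of all genes in each direction is not given for that scaling, so these counts are descriptions. NOTCH1, a receptor degraded through FBXW7, rose in 5-FU by 1.76, and JUN, an AP-1 factor, rose in Combi by 1.75 and in SARB by 1.30. In TQ NOTCH3 fell by 1.55. CREB3L1 was called lower in TQ at -2.12, from 15.2 ± 5.59 scaled counts in control to 4.46 ± 3.74 in TQ (SD, n = 3), levels near background. Its call was lost after TMM normalization (-1.69), with cartridge as a block (-1.61), and without control replicate 2 (-1.76) or TQ replicate 2 (-1.46). Set against Combi, SARB had 4 genes of this list called lower, with NOTCH3 at -1.32 and with cartridge as a block at -0.90 and not called, and 0 higher, with 3 higher at an unadjusted p under 0.05 and 3 called higher after TMM normalization.

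The last list held 14 genes of chromatin regulators, among them deacetylases and the acetyltransferases EP300 and CREBBP, and of other ubiquitin ligases. In TQ 4 were called lower and 0 higher, with 1 higher at an unadjusted p under 0.05 and 2 called higher after TMM normalization, and the counts higher and lower were 1 and 3 in 5-FU, 2 and 2 in Combi, and 1 and 3 in SARB. The lower calls were 28.6% of the list in TQ against 21.6% of all genes, 21.4% in 5-FU against 10.1%, 14.3% in Combi against 6.58% and 21.4% in SARB against 20%. The higher calls were 7.14% in 5-FU against 10.1%, 14.3% in Combi against 13.6% and 7.14% in SARB against 8.63%. Its medians were -0.49 in TQ against -0.47 for all genes, -0.21 in 5-FU against -0.27, -0.05 in Combi against -0.10 and -0.21 in SARB against -0.41. MDM2, the ubiquitin ligase for p53, rose in 5-FU (2.05), Combi (2.29) and SARB (2.14). The histone deacetylase HDAC2 fell in Combi by 0.72. HDAC4, another deacetylase, was called lower in 5-FU (-1.09) and SARB (-1.21), where control samples averaged 111 ± 55.8 scaled counts and cartridge as a block left -0.35 and -0.47, not called. HDAC11 (-1.59) and the acetyltransferase CREBBP (-1.54) were called lower in TQ, and both calls were lost with that block (-0.53 and -1.11). The CREBBP call was also lost after TMM normalization (-1.07) and without control replicate 3 (-1.36), TQ replicate 2 (-1.33) or TQ replicate 3 (-1.39). In SARB 3 of the 14 were called lower than in Combi and 0 higher, with 3 higher at an unadjusted p under 0.05 and 3 called higher after TMM normalization. Of these, HDAC11 was at -1.46 and HDAC5 at -0.77, and with cartridge as a block at 0.24 and -0.12, neither called. HDAC5 was also not called after TMM normalization (-0.51) or in DESeq2 (-0.44, adjusted p = 0.134). Over all genes the calls of SARB against Combi were 0.959% higher and 11.2% lower, while the lower calls were 11.8% of the RB1 kinase list, 21.1% of the substrate list and 21.4% of the last list, and the higher call of DNMT1 was 3.23% of the E2F target list. With cartridge as a block 0 genes of the 4 lists were called in that pair, where no cartridge held both treatments.

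**Figure D4:**
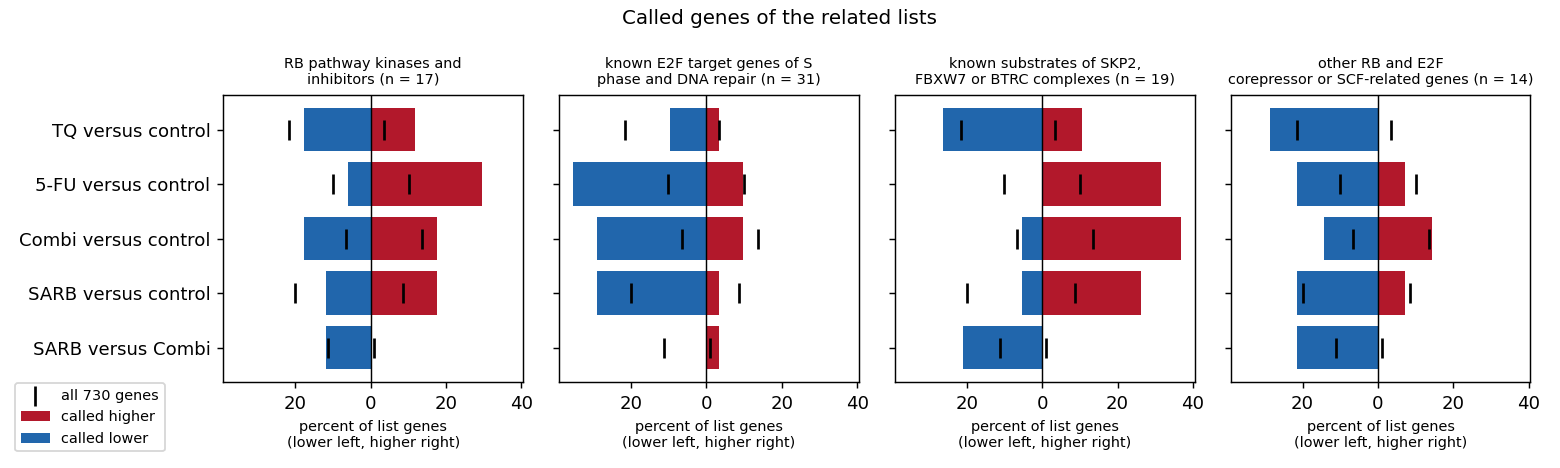
Percent of the tested genes of each of the 4 lists that were called higher (red, to the right) or lower (blue, to the left) in the 5 comparisons after housekeeping scaling, with black ticks for the percent of all 730 genes called in that direction. For the 31 E2F target genes the lower bars reach beyond the ticks in 5-FU, Combi and SARB, where 11, 9 and 9 genes were called lower.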

How the data were processed

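HCT116 RNA (50 ng per sample, per the labels) was counted on the NanoString PanCancer Pathways panel. The authors deposited raw counts, which were used here, and normalized values, a signal that their methods scale by the geometric mean of the housekeeping genes in nSolver. These deposited signal values had a floor of 1 and served in 1 alternative. A deposited table of fold changes and p-values was not used. All per-sample columns of the tables used were matched to samples by the sample number in the labels, and 0 were left over.

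Raw counts of 730 endogenous genes were fitted in edgeR 4.0.16 (R 4.3.3) with library sizes from the geometric mean of 40 housekeeping genes, 5 groups, no covariate and no filter on low counts. The quasi-likelihood test was adjusted by Benjamini-Hochberg over all 730 genes, and the script was tested on simulated data. The standard error is the absolute log2 fold change over the square root of F. Intervals (95%) use the t distribution with the degrees of freedom of edgeR. Totals of 135017 to 607782 counts per sample set the precision, and the smallest count of a member was 66.

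Alternatives were TMM, DESeq2 1.42.0, limma 3.58.1 on log2 of the deposited values, a mean raw count of at least 20, housekeeping genes with a mean raw count of at least 100 (34 of 40), cartridge or replicate number as a block, no fold minimum, and each sample left out. Genes were named by rule: every member, from each list up to 2 called genes with the largest change per comparison, and the nearest gene in pattern (that of FBXW7 is not reported here). The members and lists were chosen with earlier results of these data known. Replicates differed by more than counting noise (lowest chi-square per degree of freedom 1.46 over 15 pairs). Promoter and gene coordinates are those of RefSeq (GRCh38.p14). Figures were drawn with matplotlib 3.10.9.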

Additional observations from a re-analysis of the deposited data

How the results depend on the processing

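Counts of members called moved between settings as follows. In TQ, 1 was called higher after TMM and 2 by DESeq2 (none before), and 1 lower by limma and by the housekeeping genes with 100 counts or more and 2 with no fold minimum. In 5-FU, 2 were lower by limma, 2 by those housekeeping genes and 3 with no fold minimum (none before). In Combi, 1 was lower by limma, 1 with the cartridge block and 5 with no fold minimum (none before). In SARB, 1 was higher after TMM and 1 by DESeq2, and 0 were lower after TMM, by DESeq2 or with the cartridge block and 5 with no fold minimum (2 before). Between SARB and Combi, 0 were higher by those housekeeping genes or with the block, and 0 lower after TMM, by DESeq2 or with the block and 2 with no fold minimum (1 each before). With the block the number of genes called went down from 183 to 39 (TQ), from 148 to 98 (5-FU), from 147 to 96 (Combi), from 209 to 106 (SARB) and from 89 to 1 (SARB against Combi), where fewer control or Combi samples bear on each comparison.

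Signs turned in TQ after TMM and by DESeq2 for E2F5 (0.30 and 0.33), RB1 (0.18 and 0.21), TFDP1 (0.11 and 0.15), SKP1 (0.43 and 0.47), SKP2 (0.26 and 0.29) and CUL1 (0.32 and 0.35), and with the block for E2F5 (0.01) and SKP1 (0.12). They turned in 5-FU for TFDP1 (0.04 and 0.05) and RBX1 (0.07 and 0.08), and in SARB for SKP1 (0.02 and 0.04) and RBX1 (0.10 and 0.10). In Combi they turned for E2F5 after TMM (0.03), RB1 by limma (-0.07) and TFDP1 after TMM (0.09), by DESeq2 (0.03) and by those housekeeping genes (0.03). Between SARB and Combi they turned for SKP2 (0.08, 0.15 and with the block 0.05), CUL1 (0.26, 0.34 and with the block 0.14), FBXW7 (0.09 and 0.16), SKP1 by those housekeeping genes (-0.03), and with the block RB1 (-0.10), CCND3 (0.23) and HDAC11 (0.24). TMM shifts all genes of a comparison together, by its own construction, and the other causes were not tested.

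With 1 sample left out, members lower ranged from 0 to 1 (TQ), 0 to 2 (5-FU) and 0 to 1 (Combi), members higher from 0 to 1 in Combi, in SARB and between SARB and Combi, and genes called from 86 to 219 in TQ and from 49 to 156 between SARB and Combi. The log2 fold change of SKP1 ranged from -0.11 to 0.02 in TQ, and in Combi that of E2F5 from -0.15 to 0.07, of RB1 from -0.15 to 0.11 and of TFDP1 from -0.06 to 0.08. Between SARB and Combi it ranged from -0.03 to 0.12 for SKP1, from -0.12 to 0.05 for CUL1 and from -0.35 to 0.07 for FBXW7. Samples with the same replicate number had correlations of deviations from -0.672 to 0.39 over 30 pairs, 9 over 0.1. Pairs with different numbers were not compared, so these values cannot decide whether the numbers pair the samples. With replicate number as a block all 45 member results kept their direction and side of the threshold, with 162 genes called in TQ, 142 in 5-FU, 143 in Combi, 188 in SARB and 70 between SARB and Combi. The filter at a mean raw count of 20 changed the direction or call of none of the 45. With it RB1 in 5-FU (edgeR adjusted p = 0.0425) and FBXW7 in SARB (edgeR adjusted p = 0.0488) passed the adjusted p alone.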
